A study of Hipposideros armiger and Mus musculus with 20 samples.

Results

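Glucose use was followed through 10 genes of glycolysis, glycogen handling and the pyruvate switch, which were taken by their symbols from a table of 14871 genes. The genes are Hk2, Pfkp, Pfkl, Pfkfb1, Tpi1, Eno1, Ldhb, Pygb, Ppp1r3b and Pdk4, and all 10 were found. Adipose tissue was sequenced from mice of the ICR background and from the great roundleaf bat, Hipposideros armiger, kept at 10 °C or 30 °C for 7 days. The bat groups were interscapular brown fat (iBAT), subcutaneous white fat (sWAT) and white fat from inside the abdomen (aWAT), each at 10 °C and 30 °C. The mouse groups were iBAT and sWAT, likewise at both temperatures. Each of the 10 groups holds 1 female and 1 male library, 12 in bat and 8 in mouse, and paired values below give the female library first. No transgene or deletion is named for either species, and the sources used here do not give the animals' age, any pooling, or whether depots of 1 sex and temperature came from 1 animal.

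Glucose that enters a fat cell is trapped by hexokinase and committed to glycolysis by phosphofructokinase, which fructose 2,6-bisphosphate stimulates. Glycogen is a store of glucose that phosphorylase opens and that protein phosphatase 1, brought to the granule by its targeting subunits, rebuilds. Pyruvate at the end of glycolysis can be turned into lactate or enter mitochondria through pyruvate dehydrogenase, which the pyruvate dehydrogenase kinases switch off. Brown fat is known for taking up much glucose in the cold beside the fatty acids it burns for heat.

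Values are FPKM, sequenced fragments scaled to transcript length and library size, as deposited. Changes are log2 ratios of FPKM + 1, followed by the limma standard error (n = 2 libraries in each group), and a gene was called where the p-value adjusted over all genes tested was under 0.05. From each change the median over all genes of its comparison was subtracted, which was −0.30 in cold mouse iBAT, −0.37 in cold mouse sWAT and −0.14 in cold bat aWAT. It was −0.57 and −0.47 for mouse iBAT against sWAT at 30 °C and 10 °C, −0.26 for bat iBAT against sWAT at 10 °C, −0.15 for bat iBAT against aWAT at either temperature, and 0.21 and 0.42 for the species differences in iBAT and sWAT. Tests rest on the coefficients without this shift. All 10 genes passed the filter on low values in both species. Bat genes carry mouse identifiers, and in the bat the cytoskeletal actin Actb had a median of 0 FPKM and the translation factor Eef1a1 one of 0.53 FPKM. Levels were therefore not compared between species. Differences between species in the cold response rest on the same bat values, and how far read assignment shaped them was not tested. Shares of related genes within the bat carry the same limit, since bat reads of each relative may have reached mouse identifiers to unlike extents.

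The labelled depots were checked against marker genes. Ucp1, the uncoupling protein of brown fat, had 3688 and 5119 FPKM in mouse iBAT at 10 °C, against 192 and 49.9 FPKM at 30 °C, and it had 10405 and 7239 FPKM in bat iBAT at 10 °C, against 2886 and 2670 FPKM at 30 °C. Cold aWAT of the bat had 7184 and 2939 FPKM of Ucp1, against 3.18 and 2.67 FPKM at 30 °C, while bat sWAT stayed between 0.41 and 1.20 FPKM at both temperatures. Skeletal muscle markers varied among mouse libraries: the sum of the 10 that were measured, of 13 listed, was 25.4 and 999 FPKM in iBAT at 10 °C, against 2163 and 1739 FPKM at 30 °C. In mouse sWAT it was 22.4 in the female and 1829.9 FPKM in the male library at 10 °C, against 36.1 and 12.5 FPKM at 30 °C. In bat iBAT and aWAT the same sum lay between 1.33 and 2.52 FPKM, and in bat sWAT it was 316 and 599.5 FPKM at 10 °C, against 14.8 and 3.49 FPKM at 30 °C. The sum of 5 brown fat markers was 2569 and 5139.5 FPKM in mouse sWAT at 10 °C, against 18.7 and 24.0 FPKM at 30 °C. The sum of 5 B lymphocyte markers was 333 and 69.3 FPKM in mouse sWAT at 10 °C, against 973 and 779 FPKM at 30 °C, and that of the T lymphocyte markers 35.9 and 0.49 FPKM, against 121 and 127 FPKM. In bulk tissue, fewer cells of a type and less RNA per cell cannot be told apart.

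Several of these genes have close relatives, and stretches where some of them are alike are shown. Reads could be counted for a relative where a stretch is shared base for base. The windows are mouse coding sequence from GENCODE M21, 5′ to 3′, and capitals mark bases that differ from the first gene of each set. The brain form of glycogen phosphorylase, Pygb, is set beside the muscle form Pygm, from which it differs at 6 of 92 bases of the window, and the liver form Pygl, from which it differs at 14. The platelet form of phosphofructokinase, Pfkp, is set beside the liver form Pfkl, with 17 of 78 bases different.
Pygb: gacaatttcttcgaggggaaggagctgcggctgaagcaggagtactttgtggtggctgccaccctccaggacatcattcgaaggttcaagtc
Pygm: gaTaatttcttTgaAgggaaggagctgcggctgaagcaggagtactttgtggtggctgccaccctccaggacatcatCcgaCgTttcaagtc
Pygl: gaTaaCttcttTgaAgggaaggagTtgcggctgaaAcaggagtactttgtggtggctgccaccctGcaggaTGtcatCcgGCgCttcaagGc
Pfkp: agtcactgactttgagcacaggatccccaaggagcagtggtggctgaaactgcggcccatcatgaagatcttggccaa
Pfkl: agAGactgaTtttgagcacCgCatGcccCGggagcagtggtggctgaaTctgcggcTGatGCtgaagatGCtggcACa
Over the whole coding sequence, Pygb shares 77.3% of bases with Pygm and 74.7% with Pygl, and Pfkp shares 66.5% with Pfkl. Every stretch of 31 bases in the coding sequence was also looked up in the transcripts of all other mouse genes. For Hk2, Pfkp, Pfkl, Pfkfb1, Ppp1r3b and Pdk4 none was found elsewhere, and for Pygb 1.5% were found in Pygm. For Eno1, 89.5% of stretches recur in Gm4735 and 86.9% in Eno1b, for Ldhb 54.2% recur in Gm5514, and for Tpi1 31.6% recur in 7 other genes. None of these copies was analysed here, so the values of Eno1, Ldhb and Tpi1 are uncertain as far as reads were divided among them.

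In mouse sWAT 8 genes rose at 10 °C and none fell, with Ppp1r3b, Pdk4 and Hk2 leading. The brown fat, muscle and lymphocyte marker sums given above differed between the same sWAT libraries, and their part in these rises was not tested. In mouse iBAT 5 genes rose (Hk2, Pfkp, Pfkl, Eno1 and Ppp1r3b) and Pygb fell. In bat aWAT 5 rose (Tpi1, Eno1, Ldhb, Pygb and Pdk4) and Pfkfb1 fell. In bat iBAT Pfkfb1 was the 1 gene of the 10 that passed, and it fell. In bat sWAT none of the 10 was called by limma, with 2 at an unadjusted p under 0.05 and none called when the spread was moderated without a trend.

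**Figure D1:**
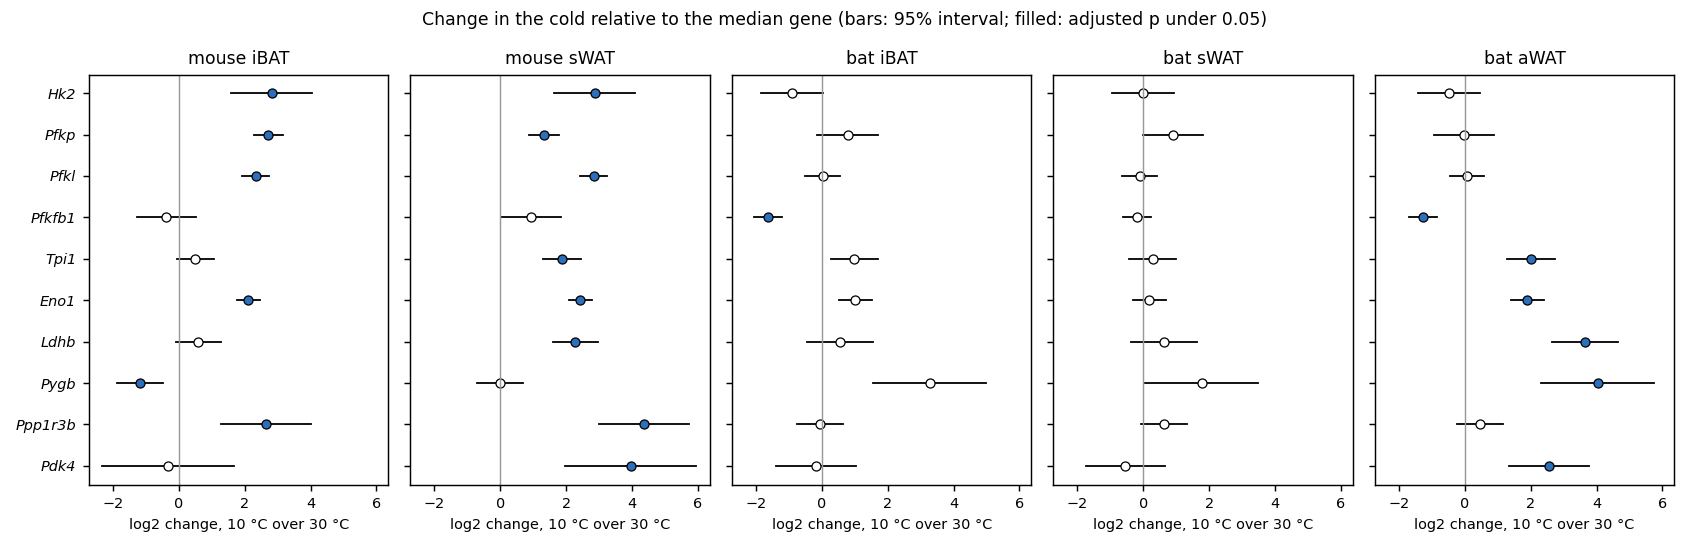
Change of each gene at 10 °C relative to 30 °C in the 5 depots, as a log2 ratio of FPKM + 1 relative to the median gene (horizontal axis), with 95% intervals from limma and filled points for adjusted p under 0.05. In both mouse depots Hk2, Pfkp, Pfkl, Eno1 and Ppp1r3b are filled to the right of 0, and in bat aWAT Tpi1, Eno1, Ldhb, Pygb and Pdk4 are.

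Among all genes tested, 14.1% were called in cold mouse iBAT, of which higher genes made up 2.84% (304 genes; 615 with median-ratio scaling) and lower genes 11.2% (1202; 491). In cold mouse sWAT 33.9% were called, 7.06% higher (755; 1107) and 26.8% lower (2867; 1003). In cold bat iBAT 2.20% were called, 1.22% higher (135; 155) and 0.980% lower (108; 63). In cold bat sWAT 1.02% were called, 0.943% higher and 0.0726% lower. In cold bat aWAT 15.3% were called, 8.66% higher and 6.67% lower. For the 10 genes the middle change was 1.35 in cold mouse iBAT, 2.36 in mouse sWAT, 0.29 in bat iBAT, 0.23 in bat sWAT and 1.18 in bat aWAT, where that of all genes is 0 by construction.

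These counts depend on which libraries enter. In mouse iBAT the 6 calls were all lost when any 1 of the 4 libraries was left out, with adjusted p from 0.0567 to 0.185, although all 6 kept an unadjusted p under 0.05 and their direction. Such fits called between 1 and 3 genes in all. In mouse sWAT no gene was called when only its 4 libraries were fitted (adjusted p = 0.12 for 7 of the 8), and without the female library at 30 °C 3 remained called, Hk2, Pfkl and Eno1. In bat aWAT 3 genes (Pfkfb1, Eno1 and Ldhb) were called in the fit of its 4 libraries alone and also without the female library at 10 °C.

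Hk2 (ENSMUSG00000000628, chromosome 6, 82725025 to 82774454, minus strand, GRCm38) encodes hexokinase 2, which phosphorylates glucose on entry. In mouse iBAT it had 138 and 108 FPKM at 10 °C, against 20.6 and 20.4 FPKM at 30 °C. In mouse sWAT it had 50.1 and 43.8 FPKM at 10 °C, against 3.56 in the female and 14.7 FPKM in the male library at 30 °C. Both cold groups lay wholly above their warm groups, with log2 changes of 2.81 ± 0.51 (adjusted p = 0.0283) in iBAT and 2.86 ± 0.51 (adjusted p = 0.0208) in sWAT. The call in sWAT was lost without the male library at 10 °C (adjusted p = 0.0588), and that in iBAT under quantile normalization (adjusted p = 0.0646).

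The bat gave Hk2 a different order. Bat iBAT had 19.8 and 24.0 FPKM at 10 °C, against 32.9 and 61.3 FPKM at 30 °C, both cold libraries below both warm ones, with a log2 change of −0.91 ± 0.42 that was not called (adjusted p = 0.229). In bat sWAT and aWAT the cold and warm libraries overlapped, with changes of −0.01 ± 0.42 and −0.49 ± 0.42. The cold response of Hk2 was lower in the bat than in the mouse by a log2 difference of −3.74 ± 0.70 in iBAT (adjusted p = 0.0131) and −2.86 ± 0.70 in sWAT (adjusted p = 0.0282). Without the female mouse library at 30 °C the sWAT difference was −1.93 (adjusted p = 0.116). Across the 12 bat libraries Hk2 ran from 18.4 to 61.3 FPKM, and its 6 group means, from 21.9 to 47.1 FPKM, overlapped their neighbours throughout.

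The phosphofructokinases carry out the committed step of glycolysis. Pfkl (ENSMUSG00000020277, chromosome 10, 77986947 to 78010083, minus strand) is the liver form and Pfkp (ENSMUSG00000021196, chromosome 13, 6579768 to 6648777, minus strand) the platelet form, shown above side by side. Pfkl had 285 and 336 FPKM in mouse iBAT at 10 °C, against 71.4 and 78.4 FPKM at 30 °C, and 131 and 164 FPKM in mouse sWAT at 10 °C, against 25.9 and 25.5 FPKM at 30 °C. The groups were far apart in both depots, with log2 changes of 2.33 ± 0.17 (adjusted p = 0.00513) in iBAT and 2.83 ± 0.17 (adjusted p = 0.00216) in sWAT. Pfkp had 77.3 and 84.2 FPKM in mouse iBAT at 10 °C, against 14.6 and 13.9 FPKM at 30 °C, and 34.5 and 47.8 FPKM in mouse sWAT at 10 °C, against 18.5 and 22.5 FPKM at 30 °C. Its log2 change was 2.72 ± 0.19 in iBAT (adjusted p = 0.00513) and 1.33 ± 0.19 in sWAT (adjusted p = 0.0193). The difference between the depots' responses, −1.41 ± 0.26 for sWAT minus iBAT, was not called (adjusted p = 0.0962).

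In the bat neither phosphofructokinase was called in the cold in any depot. Pfkl stayed between 10.2 and 23.7 FPKM over the 12 libraries, and its cold response was below that of the mouse by −2.31 ± 0.30 in iBAT (adjusted p = 0.00255) and −2.93 ± 0.30 in sWAT (adjusted p = 0.000551). Pfkp was highest in bat sWAT at 10 °C, with 38.0 and 52.8 FPKM, against 16.2 and 30.9 FPKM at 30 °C. Those groups did not overlap, and the change of 0.90 ± 0.41 was not called (adjusted p = 0.449). In the cold Pfkp was lower in bat iBAT than in sWAT by −1.02 ± 0.41 (adjusted p = 0.0315), a call lost under median-ratio scaling (adjusted p = 0.0869), quantile normalization (0.0512) and no filter (0.0513), and without the male iBAT library or either sWAT library (0.0589 to 0.173).

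Pfkl made up most of the summed FPKM of these 2 isoforms in mouse iBAT, 78.7% and 79.9% at 10 °C and 83.0% and 84.9% at 30 °C. In mouse sWAT its share was 79.1% and 77.5% at 10 °C, against 58.4% and 53.1% at 30 °C, so the cold libraries of both depots lay close together. In bat sWAT the share was 21.7% and 18.6% at 10 °C, against 45.0% and 24.8% at 30 °C. Shares in bat iBAT and aWAT overlapped between temperatures. Pfkm, the muscle form, was not analysed here, so these are shares of 2 isoforms and not of all phosphofructokinase.

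**Figure D2:**
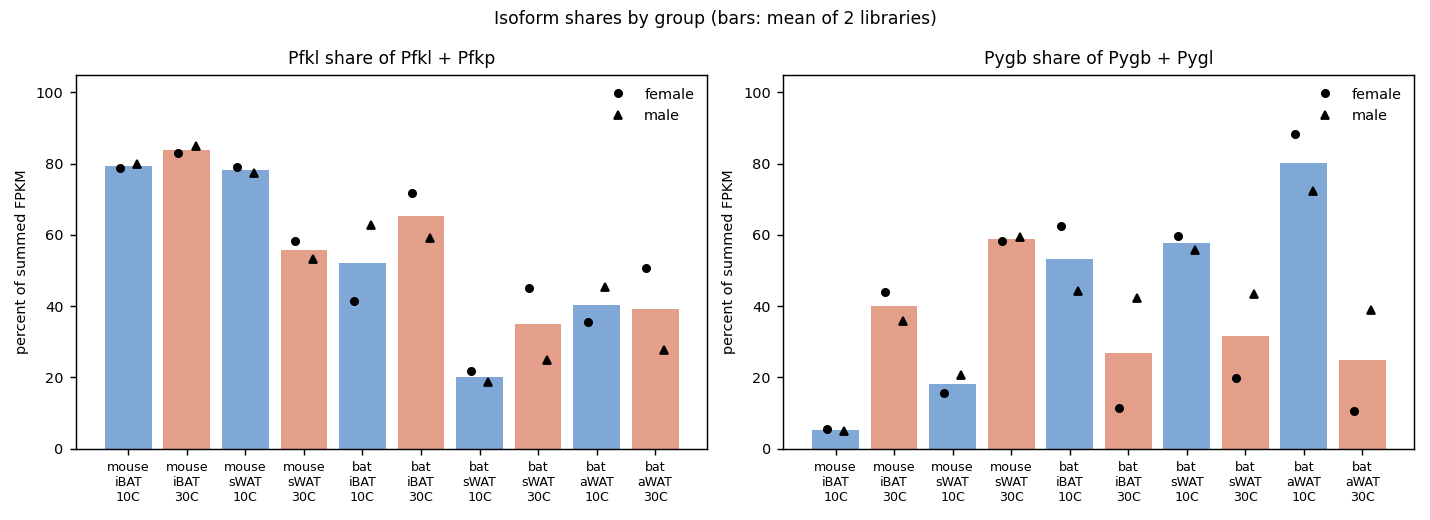
Share of Pfkl in the summed FPKM of Pfkl and Pfkp (left) and of Pygb in that of Pygb and Pygl (right), in percent, by group; bars are means of 2 libraries, blue at 10 °C and orange at 30 °C, and points are the libraries. The Pygb share is 5.5% and 4.9% in cold mouse iBAT and 88.2% and 72.3% in cold bat aWAT.

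Pfkfb1 (ENSMUSG00000025271, chromosome X, 150588229 to 150643878, plus strand) encodes a bifunctional enzyme that makes and breaks fructose 2,6-bisphosphate. It had 19.8 FPKM in both libraries of bat iBAT at 10 °C, against 69.7 and 66.7 FPKM at 30 °C, and 25.7 and 35.1 FPKM in bat aWAT at 10 °C, against 82.3 and 79.9 FPKM at 30 °C. All 4 cold libraries lay below all 4 warm ones of these depots. The fall was −1.63 ± 0.19 in iBAT (adjusted p = 0.00566) and −1.27 ± 0.19 in aWAT (adjusted p = 0.00171). The iBAT call was lost without the female library at 30 °C (adjusted p = 0.0532), without the male library at 10 °C (adjusted p = 0.085) and with only the 4 iBAT libraries fitted (adjusted p = 0.0981).

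In bat sWAT Pfkfb1 had 67.5 and 50.7 FPKM at 10 °C, against 66.8 and 59.8 FPKM at 30 °C, so the groups overlapped. The response of sWAT exceeded that of iBAT by 1.45 ± 0.27 (adjusted p = 0.0284), a call lost in 7 of 8 fits that left out 1 library (adjusted p = 0.0747 to 0.135), and that of aWAT was below that of sWAT by −1.10 ± 0.27 (adjusted p = 0.0305). Mouse Pfkfb1 was not called in the cold, at −0.37 ± 0.38 in iBAT and 0.93 ± 0.38 in sWAT. Of the summed FPKM of the 4 Pfkfb genes, Pfkfb1 made up 18.9% and 15.9% in bat iBAT at 10 °C, against 37.2% and 31.2% at 30 °C. In bat aWAT the share was 15.7% and 16.9% at 10 °C, against 16.3% and 19.9% at 30 °C, where Pfkfb3, another member of the family, had 134 and 168 FPKM, against 418 and 317 FPKM.

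**Figure D3:**
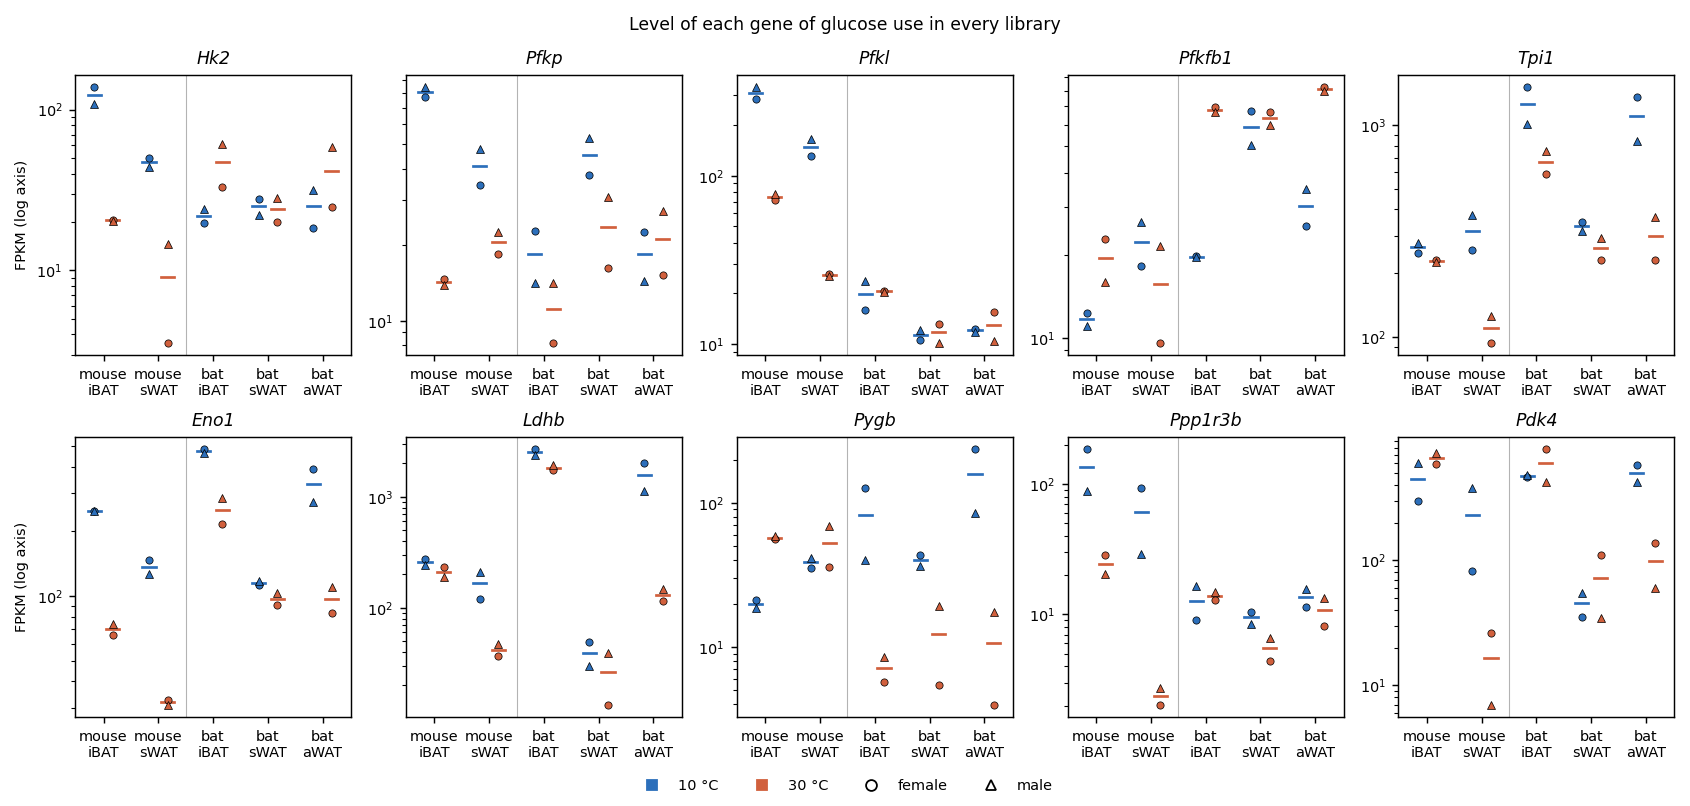
FPKM of each gene (vertical log axis) in every library, by species and depot; circles are female and triangles male libraries, short lines group means, blue 10 °C and orange 30 °C. Pfkfb1 is low in cold bat iBAT and aWAT, with 19.8 to 35.1 FPKM, and Ldhb in bat aWAT is far apart between temperatures.

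Tpi1 (ENSMUSG00000023456, chromosome 6, 124810586 to 124814296, minus strand) interconverts the triose phosphates, and Eno1 (ENSMUSG00000063524, chromosome 4, 150236721 to 150248879, plus strand) makes phosphoenolpyruvate. Eno1 had 248 FPKM in both libraries of mouse iBAT at 10 °C, against 65.9 and 73.7 FPKM at 30 °C, and 147 and 126 FPKM in mouse sWAT at 10 °C, against 32.7 and 31.1 FPKM at 30 °C. It rose by 2.11 ± 0.14 in iBAT (adjusted p = 0.00513) and by 2.43 ± 0.14 in sWAT (adjusted p = 0.00216), with no overlap in either depot. In bat aWAT it had 389.7 and 274 FPKM at 10 °C, against 83.0 and 109.9 FPKM at 30 °C, a rise of 1.90 ± 0.23 (adjusted p = 0.00128). In bat iBAT it had 481 and 463 FPKM at 10 °C, against 217 and 286 FPKM at 30 °C, where the change of 1.02 ± 0.23 missed the threshold (adjusted p = 0.07) although the groups did not overlap. Bat sWAT had 113 and 117 FPKM at 10 °C, against 90.2 and 103 FPKM at 30 °C (0.18 ± 0.23, adjusted p = 0.758).

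The response of Eno1 was higher in bat aWAT than in bat sWAT by 1.70 ± 0.32 (adjusted p = 0.0318), and lower in bat than in mouse sWAT by −2.23 ± 0.29 (adjusted p = 0.00261). Tpi1 rose in mouse sWAT, with 259 and 377 FPKM at 10 °C, against 94.6 and 127 FPKM at 30 °C (1.87 ± 0.24, adjusted p = 0.0133). In mouse iBAT it had 251 and 280 FPKM at 10 °C, against 232 and 226 FPKM at 30 °C, and was not called (adjusted p = 0.587). The cold libraries lay above the warm ones in both depots, by a wide margin in sWAT and a narrow one in iBAT. In bat aWAT Tpi1 rose to 1359 and 838 FPKM at 10 °C, against 230.5 and 369 FPKM at 30 °C (2.00 ± 0.32, adjusted p = 0.00516), and this call was lost without the female cold library (adjusted p = 0.0543). In bat iBAT it had 1504 and 1006 FPKM at 10 °C, against 585 and 751 FPKM at 30 °C, and was not called (adjusted p = 0.174).

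The muscle form of enolase, Eno3, had 5.08 and 43.2 FPKM in mouse iBAT at 10 °C, against 76.8 and 52.0 FPKM at 30 °C, and 9.80 and 71.8 FPKM in mouse sWAT at 10 °C, against 23.7 and 18.1 FPKM at 30 °C. It was high in the same 4 mouse libraries as the muscle markers. Eno1 made up 97.9% and 85.0% of the summed enolase FPKM in mouse iBAT at 10 °C, against 46.0% and 58.0% at 30 °C. In the bat Eno1 made up at least 97.5% in every library. How fully bat reads of Eno2 and Eno3 were counted is not known. The muscle marker sums of the mouse iBAT libraries were 25.4 and 999 FPKM at 10 °C, against 2163 and 1739 FPKM at 30 °C, and their part in the Eno1 values was not tested.

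Ldhb (ENSMUSG00000030246, chromosome 6, 142490249 to 142507957, minus strand) encodes the lactate dehydrogenase subunit that is known for prevailing in tissues that oxidise lactate. In bat aWAT it had 1999 and 1121 FPKM at 10 °C, against 116 and 146 FPKM at 30 °C. Both cold libraries lay far above the warm ones, with a rise of 3.65 ± 0.45 (adjusted p = 0.00125) that stayed called in every alternative run. In bat iBAT Ldhb was high at both temperatures, with 2669 and 2361 FPKM at 10 °C, against 1735 and 1929 FPKM at 30 °C (0.56 ± 0.45, adjusted p = 0.606). Bat sWAT was low at both, with 48.7 and 29.8 FPKM at 10 °C, against 13.4 and 39.2 FPKM at 30 °C (0.63 ± 0.45, adjusted p = 0.624). The cold response of aWAT exceeded that of sWAT by 3.00 ± 0.63 (adjusted p = 0.0399), a call lost under 5 of 7 alternatives, with adjusted p from 0.05 to 0.0955, and with 6 of the 8 libraries left out in turn, with adjusted p from 0.0516 to 0.163.

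In mouse sWAT Ldhb had 120.4 and 211 FPKM at 10 °C, against 36.7 and 46.9 FPKM at 30 °C, a rise of 2.28 ± 0.29 (adjusted p = 0.0122) with the higher cold value in the male library, where the muscle markers were high. The call stood without that library and was lost without the female library at 30 °C. The part of muscle in the Ldhb values was not tested. Mouse iBAT had 276 and 242 FPKM at 10 °C, against 233 and 191 FPKM at 30 °C, and was not called (adjusted p = 0.516). The 5 brown fat markers summed to 9568 and 5407 FPKM in bat aWAT at 10 °C, against 425 and 1006 FPKM at 30 °C. In bat iBAT, where Ldhb was not called, they summed to 12699 and 9586 FPKM at 10 °C, against 5486 and 4684 FPKM at 30 °C. In bat sWAT they summed to 1586 and 952 FPKM at 10 °C, against 625 and 799.99 FPKM at 30 °C. Ucp1 gave almost none of the sums in bat sWAT and in bat aWAT at 30 °C, as its levels above show. The sums there rest on the other markers of the list. In the female sWAT libraries both the sum and Ldhb were higher at 10 °C, and in the male ones the sum was higher and Ldhb lower. The part of brown fat cells in the Ldhb values was not tested.

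Pygb (ENSMUSG00000033059, chromosome 2, 150786735 to 150831758, plus strand) encodes the brain form of glycogen phosphorylase, which releases glucose 1-phosphate from glycogen. In mouse iBAT it fell to 21.3 and 18.5 FPKM at 10 °C, against 55.7 and 59.1 FPKM at 30 °C (−1.19 ± 0.29, adjusted p = 0.0261), a call lost under median-ratio scaling (adjusted p = 0.0648) and quantile normalization (adjusted p = 0.0808). In mouse sWAT it had 35.5 and 41.7 FPKM at 10 °C, against 35.8 and 69.4 FPKM at 30 °C, and the groups overlapped. In bat aWAT it had 235 and 84.9 FPKM at 10 °C, against 3.97 and 17.3 FPKM at 30 °C. Cold libraries lay above warm ones, and the rise was 4.03 ± 0.77 (adjusted p = 0.0091). That call was lost without the female library at 10 °C (3.20, adjusted p = 0.0952) and without the female library at 30 °C (3.06, adjusted p = 0.0787).

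Bat iBAT had 126 and 39.9 FPKM of Pygb at 10 °C, against 5.70 and 8.55 FPKM at 30 °C. The groups did not overlap, and the change of 3.27 ± 0.77 missed the threshold (adjusted p = 0.0642). In bat sWAT it had 43.5 and 36.4 FPKM at 10 °C, against 5.47 and 19.1 FPKM at 30 °C (1.77 ± 0.77, adjusted p = 0.444). The female library was the higher at 10 °C and the lower at 30 °C in all 3 bat depots. The cold response in iBAT was higher in the bat than in the mouse by 4.45 ± 0.95 (adjusted p = 0.0147).

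Pygl, the liver form, moved in the mouse where Pygb did not rise. It had 367 and 359 FPKM in mouse iBAT at 10 °C, against 71.1 and 106 FPKM at 30 °C (2.35 ± 0.32, adjusted p = 0.0162), and 193 and 161 FPKM in mouse sWAT at 10 °C, against 25.6 and 47.7 FPKM at 30 °C (2.67 ± 0.32, adjusted p = 0.0114). The share of Pygb in the sum of both was thus 5.5% and 4.9% in mouse iBAT at 10 °C, against 43.9% and 35.8% at 30 °C. In bat aWAT the share was 88.2% and 72.3% at 10 °C, against 10.6% and 39.0% at 30 °C, with Pygl at 31.4 and 32.4 FPKM, against 33.6 and 27.2 FPKM. The windows printed above show stretches over which reads of the 3 phosphorylases are hardest to tell apart, and Pygm was not analysed here.

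Ppp1r3b (ENSMUSG00000046794, chromosome 8, 35375739 to 35388139, plus strand) encodes a subunit that brings protein phosphatase 1 to glycogen and favours its synthesis. It had 184 and 87.8 FPKM in mouse iBAT at 10 °C, against 28.3 and 20.3 FPKM at 30 °C, and 93.6 and 28.9 FPKM in mouse sWAT at 10 °C, against 2.03 and 2.73 FPKM at 30 °C. The female library was the higher of the cold ones in both depots, and no cold library reached down to the warm ones. The rise was 2.65 ± 0.57 in iBAT (adjusted p = 0.0418) and 4.35 ± 0.57 in sWAT (adjusted p = 0.0117). The iBAT call was lost with no filter on low values (adjusted p = 0.0671) and under quantile normalization (adjusted p = 0.0651). Bat Ppp1r3b ran from 4.39 to 16.5 FPKM and was not called in the cold in any depot. The bat response was below that of the mouse by −2.72 ± 0.66 in iBAT (adjusted p = 0.0452) and −3.70 ± 0.66 in sWAT (adjusted p = 0.0073). The iBAT difference was lost in 7 of 8 fits that left out 1 library, all but the one without the male mouse library at 10 °C, and the sWAT difference was lost with only the groups compared (adjusted p = 0.0641).

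Pdk4 (ENSMUSG00000019577, chromosome 6, 5483351 to 5496309, minus strand) encodes a pyruvate dehydrogenase kinase and so holds glucose carbon back from oxidation; fasting and fatty acids are known to induce it. Mouse iBAT had 298 and 606 FPKM at 10 °C, against 590.4 and 725 FPKM at 30 °C, overlapping groups with a change of −0.32 ± 0.83 (adjusted p = 0.646). Mouse sWAT had 81.5 and 378 FPKM at 10 °C, against 26.0 and 6.98 FPKM at 30 °C, a rise of 3.96 ± 0.83 (adjusted p = 0.0257). The muscle marker sums of the same sWAT libraries were 22.4 and 1829.9 FPKM at 10 °C, against 36.1 and 12.5 FPKM at 30 °C. Without the male library at 10 °C, the one with high muscle markers, the change was 2.75 and no longer called (adjusted p = 0.081). It was also lost without either library at 30 °C (adjusted p = 0.0727 and 0.0781).

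**Figure D4:**
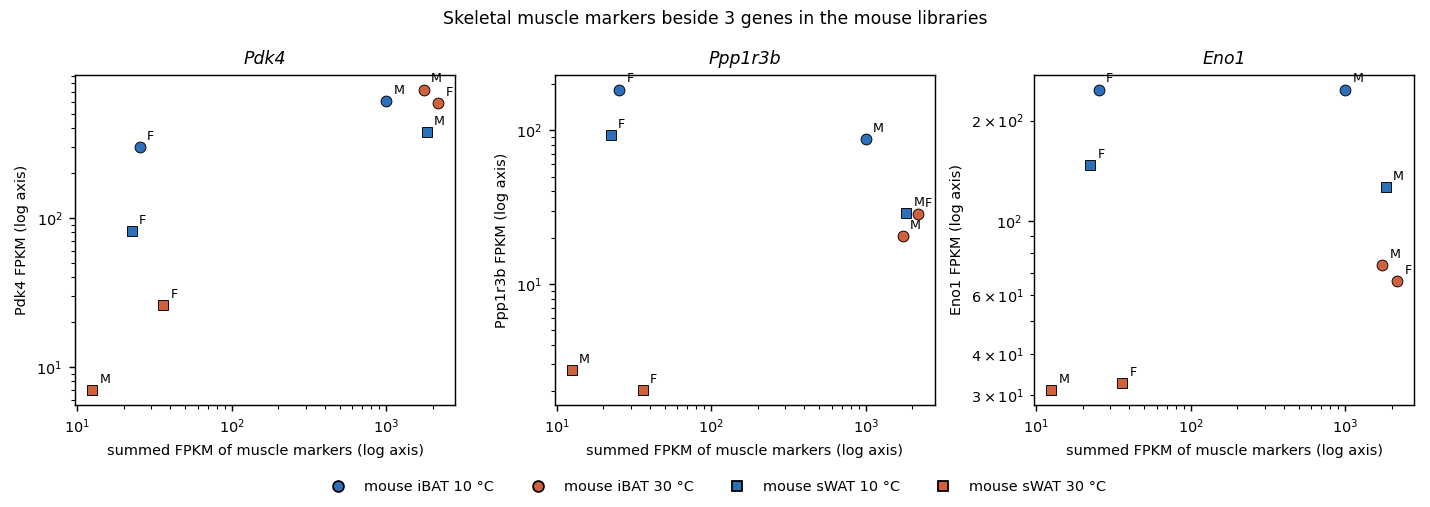
FPKM of Pdk4, Ppp1r3b and Eno1 (vertical log axes) against the summed FPKM of 10 skeletal muscle markers (horizontal log axis) in the 8 mouse libraries, with F for female and M for male. Pdk4 is highest in the 4 libraries with marker sums of 999 FPKM or more, while Ppp1r3b is highest in the cold iBAT female library, whose sum is 25.4 FPKM.

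In the bat Pdk4 had 577 and 426 FPKM in aWAT at 10 °C, against 139 and 60.6 FPKM at 30 °C. The groups lay apart, with a rise of 2.56 ± 0.54 (adjusted p = 0.0163) that was lost without the female library at 10 °C (adjusted p = 0.126) or the male library at 30 °C (adjusted p = 0.0813). In bat iBAT it had 468 and 480.2 FPKM at 10 °C, against 774 and 428 FPKM at 30 °C, and in bat sWAT 35.1 and 55.2 FPKM at 10 °C, against 109.8 and 34.4 FPKM at 30 °C, with overlap in both. The response of bat sWAT was below that of mouse sWAT by −4.49 ± 1.03 (adjusted p = 0.0177), lost when only those groups were fitted (adjusted p = 0.0971), without either mouse male library (0.0877 at 10 °C, 0.0527 at 30 °C) and without either bat female library (0.0562 at 10 °C, 0.0592 at 30 °C). Pdk4 made up 94.0% and 92.5% of the summed FPKM of Pdk1, Pdk3 and Pdk4 in bat aWAT at 10 °C, against 84.1% and 72.3% at 30 °C. Pdk2 was not analysed here. Muscle marker sums in bat sWAT were 316 and 599.5 FPKM at 10 °C, against 14.8 and 3.49 FPKM at 30 °C. In bat iBAT and aWAT they lay between 1.33 and 2.52 FPKM. The part of muscle in the Pdk4 values of either species was not tested.

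Brown fat was next set against white fat at each temperature, comparisons that share both their iBAT and their white fat libraries with those above. In mouse at 30 °C 6 genes were higher in iBAT and none lower, where 58.7% of all genes were called, 10.7% higher and 48.0% lower. They were Pfkl (2.08 ± 0.17), Tpi1 (1.63 ± 0.24), Eno1 (1.68 ± 0.14), Ldhb (2.89 ± 0.29), Ppp1r3b (3.47 ± 0.57) and Pdk4 (6.05 ± 0.83), with adjusted p from 0.00165 to 0.01 in limma. At 10 °C 3 were higher in mouse iBAT, Pfkp (1.44 ± 0.19), Pfkl (1.54 ± 0.17) and Eno1 (1.32 ± 0.14), where 29.9% of all genes were called, 2.32% higher and 27.6% lower. The higher genes numbered 1144 at 30 °C and 248 at 10 °C (2025 and 920 with median-ratio scaling), and the lower ones 5126 and 2946 (2866 and 1133). At 10 °C Pfkp, Pfkl and Eno1 each kept their call under 6 of the 7 other settings. With 1 library left out, Pfkp and Eno1 kept it in 2 of 4 fits and Pfkl in 3 of 4. The muscle marker sums were 2163 and 1739 FPKM in mouse iBAT, against 36.1 and 12.5 FPKM in sWAT at 30 °C, and their part in the difference of Pdk4 was not tested.

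In the bat at 30 °C 6 genes were higher in iBAT than in sWAT and none lower: Pfkl, Tpi1, Eno1, Ldhb, Ppp1r3b and Pdk4, the same 6 symbols as in mouse, where 24.0% of all bat genes were called, 11.0% higher and 13.0% lower. With each of the 4 bat libraries left out in turn, the call for Pfkl was lost every time (adjusted p = 0.0539 to 0.19). That for Ppp1r3b was lost without the female sWAT library or either iBAT library (0.0662 to 0.128), and that for Tpi1 without the female sWAT or the male iBAT library (0.0789 and 0.0919). In mouse, the Tpi1 call was lost without either iBAT library or the female sWAT library (0.0517 to 0.0539). Ldhb differed most, by 6.32 ± 0.45 (adjusted p = 2.98e-05), followed by Pdk4 at 3.27 ± 0.54 (adjusted p = 0.00236). At 10 °C 5 genes were higher in bat iBAT than in sWAT and 2 lower, where 39.9% of all genes were called, 13.2% higher and 26.8% lower. Ldhb (6.26 ± 0.45), Pdk4 (3.66 ± 0.54), Eno1 (2.29 ± 0.23), Tpi1 (2.14 ± 0.32) and Pfkl (1.00 ± 0.23) were higher, and Pfkfb1 (−1.26 ± 0.19) and Pfkp (−1.02 ± 0.41) lower. Over the other settings and left-out libraries the Pfkl difference at 10 °C ran from 0.74 to 1.27. Its call was kept under 6 of the 7 settings, but in only 1 of the 4 fits that left out 1 library. The higher and lower calls over all genes numbered 1450 and 2950 (1861 and 2226 with median-ratio scaling).

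Against bat aWAT, 4 genes were higher in iBAT at 30 °C: Ldhb (3.95 ± 0.45, adjusted p = 0.000525), Pdk4 (2.79 ± 0.54, adjusted p = 0.00826), Eno1 (1.53 ± 0.23, adjusted p = 0.00309) and Tpi1 (1.33 ± 0.32, adjusted p = 0.0292), where 20.2% of all genes were called, 7.66% higher and 12.6% lower (844 and 1386 genes, or 955 and 1142 with median-ratio scaling). Over the other settings and left-out libraries the Tpi1 difference at 30 °C ran from 0.94 to 1.69 and that of Pdk4 from 2.22 to 3.34. Tpi1 kept its call under 5 of the 7 settings, but in only 1 of the 4 fits that left out 1 library. Pdk4 kept its call under all 7 settings and in 2 of those 4 fits. At 10 °C none of the 10 was called by limma, with 3 at an unadjusted p under 0.05 and none called without a trend in the spread, where 0.816% of all genes were called, 0.172% higher and 0.644% lower. The intervals at 10 °C still allow sizeable differences: that of Ldhb ran from −0.11 to 1.89 and that of Pygb from −2.55 to 0.87.

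**Figure D5:**
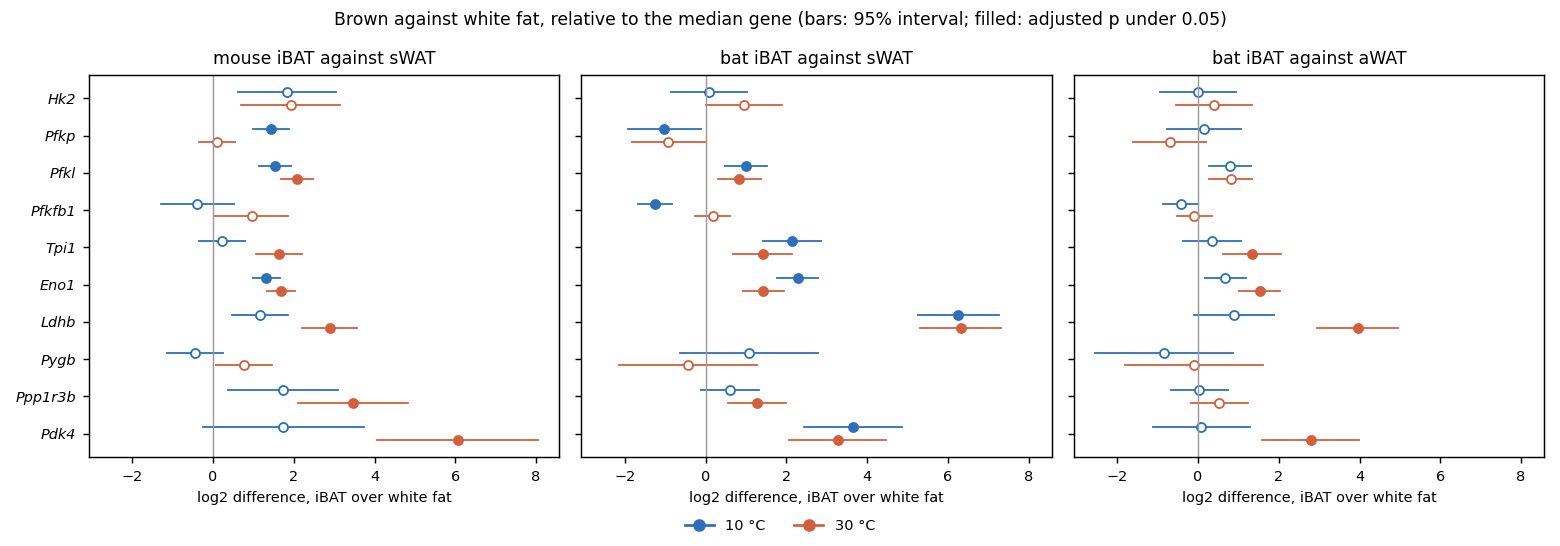
Difference of iBAT over white fat for each gene, as a log2 ratio of FPKM + 1 relative to the median gene, at 10 °C (blue) and 30 °C (orange), with 95% intervals from limma and filled points for adjusted p under 0.05. Against bat aWAT, Tpi1, Eno1, Ldhb and Pdk4 are filled at 30 °C and no gene is filled at 10 °C.

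The depots' cold responses were also compared directly. In the mouse none of the 10 differed between sWAT and iBAT by limma (0.0936% of all genes were called, 0.0561% higher and 0.0374% lower), with 5 at an unadjusted p under 0.05 and none called without a trend. Without the female sWAT library at 10 °C 4 were called, Pfkp, Tpi1, Ldhb and Pdk4. In the bat none differed between aWAT and iBAT (0.336% called, all of them higher), with 3 at an unadjusted p under 0.05 and none without a trend. Pfkfb1 alone differed between bat sWAT and iBAT (0.571% called, 0.526% higher and 0.0454% lower), and Pfkfb1, Eno1 and Ldhb between bat aWAT and sWAT (4.41% called, 2.68% higher and 1.73% lower). Between species, 4 genes differed in iBAT, Pygb higher and Hk2, Pfkl and Ppp1r3b lower in the bat, where 4.86% of genes were called, 3.76% higher and 1.11% lower (353 and 104; 228 and 185 with median-ratio scaling). In sWAT 5 were lower in the bat, Hk2, Pfkl, Eno1, Ppp1r3b and Pdk4, where 21.2% were called, 16.5% higher and 4.64% lower (1553 and 436; 530 and 584).

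The wider pathway was read from 9 lists, which hold the 10 genes too. Among all genes, 14.1% were called in cold mouse iBAT (2.84% higher, 11.2% lower) and 33.9% in cold mouse sWAT (7.06% and 26.8%). In the cold bat 2.20% were called in iBAT (1.22% and 0.980%), 1.02% in sWAT (0.943% and 0.0726%) and 15.3% in aWAT (8.66% and 6.67%). The list counts are given beside these shares, and no list was tested as a set. Of 25 glycolysis genes listed, 18 were found, and Hk1, Pfkm, Pgk1, Pgam1, Pgam2, Pkm and Ldha were not analysed here. Of 15 glycolysis genes tested in mouse, 6 rose in cold iBAT and 10 rose and 1 fell in cold sWAT, with median changes of 0.59 and 1.87. Many of these belong to the 10 genes. In iBAT only Gapdh and Gpi1 rose beside them, and in sWAT Hk2, Pfkp, Pfkl, Tpi1, Eno1 and Ldhb were among those that rose. Gapdh, the dehydrogenase in the middle of the pathway, had 239.9 and 263 FPKM in mouse iBAT at 10 °C, against 78.7 and 109 FPKM at 30 °C (1.73 ± 0.18, adjusted p = 0.0102), and rose in sWAT by 2.00 ± 0.18 (adjusted p = 0.00803). Aldolase A, Aldoa, rose in sWAT by 2.39 ± 0.34 (adjusted p = 0.0149). Of 11 glycolysis genes tested in bat, 3 rose in aWAT, all of them among the 10, with a median of 1.00, and none was called by limma in iBAT or sWAT, with medians of 0.74 and 0.43, with 5 and 3 at an unadjusted p under 0.05 and none called without a trend. The 1 that fell in mouse sWAT was the neuronal enolase Eno2 (−0.89 ± 0.33, adjusted p = 0.0328).

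Of 3 glucose transporters tested in mouse, Slc2a3 fell in iBAT (−0.66 ± 0.23, adjusted p = 0.0419) and in sWAT (−1.23 ± 0.23, adjusted p = 0.0118). The listed transporters Slc2a1 and Slc2a8 were not analysed here. Slc2a4, the insulin-responsive transporter GLUT4, rose in sWAT, with 117 and 122 FPKM at 10 °C, against 17.6 and 63.4 FPKM at 30 °C (2.17 ± 0.51, adjusted p = 0.0382). In iBAT it had 202 and 172 FPKM at 10 °C, against 102 and 94.7 FPKM at 30 °C, and was not called (adjusted p = 0.256). None of 4 transporters tested in bat was called by limma in any depot, and none had an unadjusted p under 0.05 or was called without a trend.

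Of 5 genes tested that make glycogen, 4 rose in mouse sWAT, 1 in mouse iBAT, 2 in bat aWAT and 1 in bat iBAT, and none fell. In bat sWAT limma called none, with 1 at an unadjusted p under 0.05 and none called without a trend. Gbe1, the branching enzyme, rose in mouse iBAT (1.51 ± 0.26, adjusted p = 0.0329), mouse sWAT (2.63 ± 0.26, adjusted p = 0.00814) and bat aWAT (2.52 ± 0.36, adjusted p = 0.00269). Ppp1r3c, another glycogen-targeting subunit of the phosphatase, had 26.2 and 20.9 FPKM in bat aWAT at 10 °C, against 1.22 and 3.42 FPKM at 30 °C (3.10 ± 0.51, adjusted p = 0.00499). It rose in mouse iBAT (2.25 ± 0.41, adjusted p = 0.0294) and sWAT (2.43 ± 0.41, adjusted p = 0.0196) as well. Of 10 genes of glycogen control tested in mouse, 2 rose and 1 fell in iBAT and 3 rose and 1 fell in sWAT, and of 9 tested in bat 2 rose in aWAT. In bat iBAT and sWAT limma called none of these 9, with none at an unadjusted p under 0.05 and none called without a trend. Of 7 glycogen breaking genes tested in mouse, 1 rose and 1 fell in iBAT and 2 rose and 1 fell in sWAT. Of 7 tested in bat, limma called none in iBAT and sWAT, with 3 and 1 at an unadjusted p under 0.05 and none called without a trend. In bat aWAT 3 rose, Pygb and 2 subunits of phosphorylase kinase, Phka2 (1.28 ± 0.19) and Phkb (1.22 ± 0.20).

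The pyruvate switch list holds Pdk4 beside the dehydrogenase it inhibits. Of 12 such genes tested in mouse, 5 rose and 1 fell in iBAT and 9 rose and 1 fell in sWAT, with medians of 1.09 and 2.40. Of 13 tested in bat, 9 rose in aWAT and 1 in iBAT, with medians of 1.41 and 0.29. In bat sWAT limma called none, with 2 at an unadjusted p under 0.05, none called without a trend and a median of 0.19. Pdhb, a subunit of pyruvate dehydrogenase, had 368 and 234 FPKM in bat aWAT at 10 °C, against 45.5 and 77.9 FPKM at 30 °C (2.42 ± 0.31, adjusted p = 0.00177). Pdhb rose by 2.15 ± 0.21 in mouse iBAT (adjusted p = 0.00868) and by 3.02 ± 0.21 in mouse sWAT (adjusted p = 0.00365). Pdk3, another kinase, was the gene called in bat iBAT, with 3.80 and 3.09 FPKM at 10 °C, against 0.71 and 0.95 FPKM at 30 °C (1.38 ± 0.25, adjusted p = 0.0357).

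Of 4 Pfkfb genes tested in mouse limma called none in iBAT or sWAT, with 1 and 2 at an unadjusted p under 0.05 and none called without a trend. Of 3 tested in bat, Pfkfb1 was the 1 called in iBAT and aWAT. Of 5 genes on the return path to glucose, 2 fell in mouse iBAT, led by Pck2 (−2.25 ± 0.23, adjusted p = 0.00555), a mitochondrial enzyme that makes phosphoenolpyruvate. In mouse sWAT 1 rose and 1 fell, and in bat aWAT Pck1, the cytosolic form, rose (1.36 ± 0.28, adjusted p = 0.0181). Of 14 regulators tested in mouse, 1 rose and 1 fell in iBAT, together near the 14.1% called among all genes. In sWAT 5 rose and 2 fell, where 7.06% of all genes were called higher and 26.8% lower. Srebf1, a lipogenic transcription factor, rose in mouse iBAT (1.86 ± 0.19, adjusted p = 0.0094), and Mlxipl, the carbohydrate response factor ChREBP, rose in mouse sWAT (2.33 ± 0.41, adjusted p = 0.0214). Esrra, a nuclear receptor of mitochondrial genes, rose in mouse sWAT (1.71 ± 0.16, adjusted p = 0.00829) and in bat aWAT (1.76 ± 0.23, adjusted p = 0.00208). Over all lists together 16 rose and 7 fell of 75 tested in mouse iBAT, the falls near the 11.2% called lower among all genes. In mouse sWAT 35 rose and 8 fell, the falls below the 26.8% called lower among all genes. Of 71 tested in bat, 2 rose and 1 fell in iBAT, and 22 rose and 1 fell in aWAT. In bat sWAT limma called none of the 71, with 9 at an unadjusted p under 0.05 and none called without a trend.

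Over the libraries of a species the 10 genes did not all follow each other. Across the 8 mouse libraries Pearson's r of log2(FPKM + 1) was 0.991 between Pfkl and Eno1, 0.945 between Eno1 and Hk2, and −0.848 between Pygb and Pfkp. Across the 12 bat libraries it was 0.981 between Tpi1 and Eno1, 0.914 between Eno1 and Ldhb and −0.842 between Eno1 and Pfkfb1. These values describe libraries that share depots and temperatures. Among 6251 mouse genes with a mean of at least 5 FPKM, the genes most like Pdk4 were Lynx1 (r = 0.988) and Mb (r = 0.978). Mb encodes myoglobin and was listed among the muscle markers. The genes most like Ldhb were Atp5k (r = 0.999) and Aldh9a1 (r = 0.998), and those most like Hk2 were Clstn3 (r = 0.989) and Gpd1 (r = 0.986). Pygb was most like Ebf1 (r = 0.986) and Spag9 (r = 0.983) in mouse, and Scamp3 (r = 0.956) and Gm13733 (r = 0.955) in bat. Among 6454 bat genes, Tpi1 was most like Dlat (r = 0.994) and Mrpl39 (r = 0.993), Ldhb most like Pdp2 (r = 0.990) and Fam47e (r = 0.986), Pfkfb1 most like Myo10 (r = 0.962) and Hnrnpu (r = 0.953), and Pdk4 most like Ppargc1b (r = 0.983) and Zdhhc2 (r = 0.977).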

How the data were processed

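The authors deposited 1 table of FPKM per gene for 20 libraries. Per the labels' protocols, RNA came from a lipid tissue kit and standard Illumina libraries, and the submitters' processing notes list CASAVA 1.8. What aligned and counted the reads, on which build, and how bat reads received mouse identifiers is not given in the sources used here. Of 14871 identifiers 14723 had a symbol. Read totals are unknown. Low values put relative depth at 0.624 to 0.739 for bat iBAT libraries and at 0.910 to 1.081 for the other bat libraries. For mouse libraries it was 0.952 to 1.109. These estimates are rough, and the part of depth in the comparisons of bat iBAT with bat white fat was not tested. Bat libraries summed to 294103 to 358510 FPKM, mouse libraries to 263338 to 305098. No counting intervals were computed.

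Values were taken as log2(FPKM + 1), which understates changes of low genes. A gene entered the fit when 2 or more libraries of a species reached 1 FPKM, which left 11025 genes for bat, 10689 for mouse and 9400 shared by both. All groups of a species (both species for species differences) were fitted in limma 3.58.1 under R 4.3.3 with a trend in the prior spread. Tests were two-sided, with Benjamini-Hochberg adjustment over all genes of a comparison and calls at 0.05. With 2 libraries per group no permutation test can reach the threshold. The main p-values measure the spread between the female and male libraries of a group, in which sex and animal cannot be told apart. The sources do not say whether libraries are pools or whether depots of the same sex and temperature share an animal. The fit was tested on simulated data. Alternatives were another pseudocount (0.1), no filter, median-ratio and quantile scaling, sex as a block, only the groups compared and leaving out each library; a fit without the trend was chosen after seeing the data.

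The 10 genes, the lists and the markers were chosen with earlier results of these data known. The rule names all 10 genes and, of each list, up to 3 other called genes with the largest change, and some of these were left out for length; genes named only for their isoform share fall outside it. Likeness takes the 2 genes with the highest r. Figures used matplotlib 3.10.9.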

Additional observations from a re-analysis of the deposited data

Results flagged for a closer look

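The cold responses of 9 gene and depot pairs differed between bat and mouse in limma, tested as a difference of differences on log2(FPKM + 1) and given relative to the median gene. The bat values behind them carry the limit on read assignment given above. In iBAT the bat response of Hk2 was below that of the mouse by −3.74, that of Pfkl by −2.31 and that of Ppp1r3b by −2.72, and that of Pygb was above it by 4.45. In sWAT the bat response was lower for Hk2 by −2.86, Pfkl by −2.93, Eno1 by −2.23, Ppp1r3b by −3.70 and Pdk4 by −4.49. Pfkl and Eno1 stayed called in sWAT, and Pfkl in iBAT, under each of the 7 other settings and with each library left out in turn. In iBAT the call for Ppp1r3b was lost in 7 of 8 fits that left out 1 library, without a filter (adjusted p = 0.0597), under quantile normalization (0.0683) and without a trend (0.052). The call for Pygb was lost in 4 of 8 such fits and that for Hk2 in 2 of 8. In sWAT the call for Hk2 was lost in 5 of 8 and that for Pdk4 in 4 of 8, and both were lost with only the groups compared, as was that for Ppp1r3b (adjusted p = 0.0641).

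Within the bat, 4 differences between depots were called. The response of Pfkfb1 was higher in sWAT than in iBAT by 1.45 and lower in aWAT than in sWAT by −1.10. The responses of Eno1 and Ldhb were higher in aWAT than in sWAT by 1.70 and 3.00. The Pfkfb1 calls were lost in 7 of 8 fits that left out 1 library for sWAT against iBAT and in 5 of 8 for aWAT against sWAT. Those for Eno1 and Ldhb were lost in 6 of 8 each.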

How the results depend on the processing

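Over the 10 genes and 17 comparisons, 1924 of 2110 alternative values kept their call or lack of one, 155 lost a call and 31 gained one. No called gene changed direction. Of the 1924, 85 changed sign without being called under either setting. The cause of a lost call was not tested, except that leaving out a library leaves fewer samples.

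Quantile normalization called 3 genes in cold mouse iBAT (6 in the main analysis) and 0 for bat sWAT minus iBAT (1). Median-ratio scaling called 5 for mouse iBAT against sWAT at 10 °C (3). With only the groups compared, 0 were called in cold mouse sWAT (8), 0 in cold bat iBAT (1), 3 in cold bat aWAT (6), 0 for bat aWAT minus sWAT (3), 7 for bat minus mouse iBAT (4) and 2 for bat minus mouse sWAT (5). Sex as a block, the other pseudocount, no filter and no trend moved no count by over 1.5 times.

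With each library left out in turn, the number called was 0 throughout in cold mouse iBAT, 3 to 8 in cold mouse sWAT, 0 to 1 in cold bat iBAT, 3 to 6 in cold bat aWAT, 0 to 5 for mouse iBAT against sWAT at 10 °C, 3 to 5 for bat iBAT against sWAT at 30 °C, 2 to 3 for bat iBAT against aWAT at 30 °C, 0 to 4 for mouse sWAT minus iBAT, 0 to 1 for bat sWAT minus iBAT, 0 to 4 for bat aWAT minus sWAT, 1 to 3 for bat minus mouse iBAT and 3 to 6 for bat minus mouse sWAT. A group left with 1 library is assumed to vary like the others. With 2 libraries per group and unknown depth, differences near the spread could not be resolved.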
